A study of Mus musculus with 12 samples.

Results

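The genes whose name on the array starts with Nduf, which encode most nuclear subunits of respiratory complex I and several of its assembly factors, were followed in mouse hearts with and without type 1 diabetes and with and without pargyline. The members were chosen by that prefix among the non-control probes, which gave 70 probes of 45 genes out of 37074 gene names on the array. Of the 45 genes, 36 encode subunits of complex I and 7 (*Ndufaf1* to *Ndufaf7*) its assembly factors. The other 2 carry the prefix only, since the *Ndufa4* product belongs to cytochrome c oxidase and *Ndufa4l2* is its relative. The animals were male C57BL6/J mice, 5 months old, with 3 hearts in each of 4 groups and 1 array per heart. Controls (C) received no streptozotocin (STZ). Diabetic mice (D) were injected with STZ, which destroys the insulin-producing beta cells, at 50 mg/kg/day intraperitoneally over 5 days, and counted as diabetic at a blood glucose of 17 mM or more. Control (C+P) and diabetic (D+P) mice of the remaining groups took pargyline, which blocks monoamine oxidase, at 50 mg/kg/day during 12 weeks. STZ is a chemical model that acts on beta cells and the labels name no genetic change in any group.

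Complex I is where electrons from NADH enter the respiratory chain. Its core subunits carry a flavin and a series of iron-sulphur clusters that pass the electrons to ubiquinone, its membrane arm pumps protons, and its accessory subunits surround and stabilise that core. Nuclear genes encode most subunits and mitochondrial DNA the remainder, while assembly factors join the modules and leave the finished enzyme. The heart is rich in mitochondria and depends on this chain for ATP, and monoamine oxidase sits on the outer mitochondrial membrane, where it releases hydrogen peroxide.

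All 45 genes had a tested probe, 64 of the 70 probes passed the filter on dim signal, and each gene was represented by its tested probe with the highest mean. All 45 representatives were well above background throughout and 0 were saturated, so the filter removed no gene. Cardiomyocyte markers were well above background on every array (9 of 9, mean log2 level 15.8 to 16.2), whereas 1 or 2 of 4 atrial and of 4 adipocyte markers were. The macrophage and leukocyte list (5 of 6 genes on the array, all well above background) averaged 9.04 to 9.28 in D+P and 9.30 to 9.43 in D, against 9.54 to 9.80 in C+P and 9.54 to 9.90 in C. The fibroblast list (5 genes) averaged 11.73 to 11.77 in D and 11.57 to 11.62 in C, and 11.60 to 11.74 in D+P and 11.46 to 11.55 in C+P. Both lists thus moved with diabetes. Those values also show the leukocyte list lower in D+P than in D, and the fibroblast list lower in C+P than in C, without overlap. The endothelial list (5 genes) averaged 9.79 to 10.04 in D and 10.05 to 10.39 in D+P, and the smooth muscle and pericyte list (4 genes) 9.41 to 9.92 in D and 9.95 to 10.53 in D+P, both without overlap. The cardiomyocyte list had group means of 16.10 (C), 16.01 (D), 16.02 (C+P) and 15.91 (D+P). The part of these lists in the results below was not tested, and in whole tissue fewer cells of a type and less RNA per cell cannot be told apart. D replicate 1 was the noisiest array, with a CV between repeated spots of 23.2% (lowest 3.89%, C replicate 3) and the fewest spots above background (23556 of 59305). C and D arrays shared one slide and C+P and D+P arrays the other, so slide and pargyline cannot be told apart in comparisons between slides, and within a slide diabetic samples filled the second row, so that diabetes cannot be told apart from row.

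The spread of the Nduf genes within groups (pooled SD of log2 level) had a median of 0.20 over the 45 genes and of 0.31 over the 20864 genes measured on all arrays, and 35 of 45 genes (77.8%) spanned less than 1 log2 unit over the 12 arrays, against 39.3% of those genes. This is shared with other bright genes: the median half-width of the 95% interval in a pairwise contrast was 0.40 for the Nduf genes, 0.40 for complexes III, IV and V, 0.40 for the 737 tested probes with a mean log2 level of at least 14, and 0.59 for all tested probes. *Ndufs4*, an accessory subunit needed for a stable enzyme, spanned the widest range of the 45, 1.77 log2 units, followed by the assembly factor *Ndufaf4* with 1.68. Single arrays set most of these wide ranges. D replicate 1 held the lowest value of 16 of the 45 genes (35.6%, against 17.8% of all genes) and C+P replicate 1 the highest value of 19 (42.2%, against 15.6%).

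**Figure D1:**
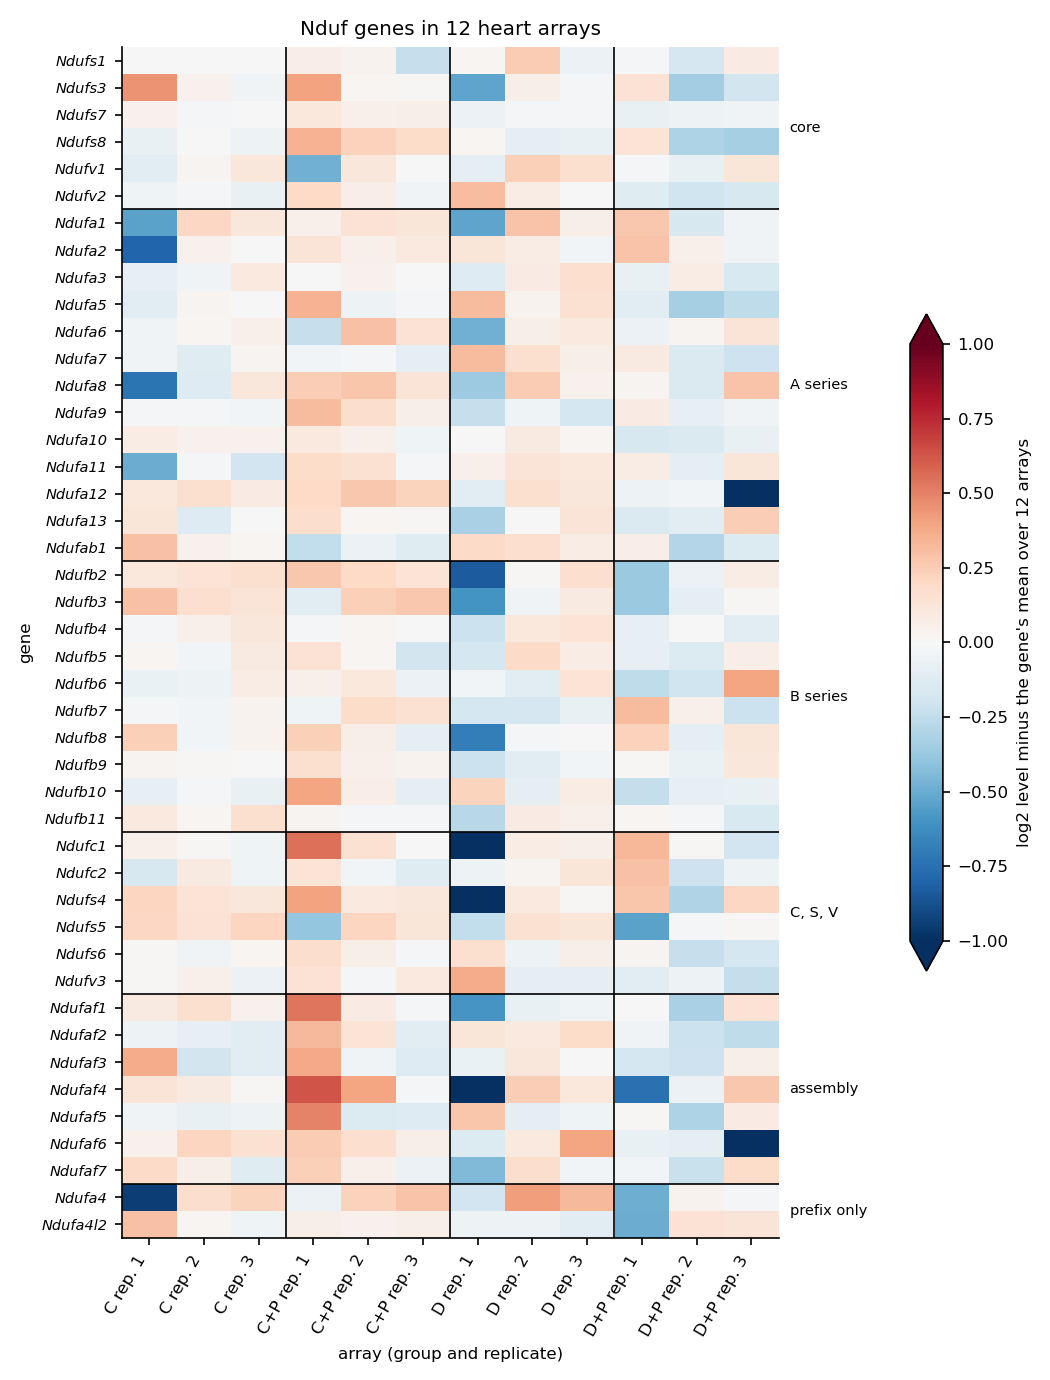
Log2 level of 44 Nduf genes (rows, grouped by role) on the 12 arrays (columns, by group and replicate), minus the mean of the gene over the arrays, with the colour scale running from -1 to 1. The darkest blue cells lie on D replicate 1 (*Ndufs4*, *Ndufaf4*, *Ndufc1*), D+P replicate 3 (*Ndufa12*, *Ndufaf6*) and C replicate 1 (*Ndufa4*), and 34 of the 44 genes drawn span less than 1 log2 unit.

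The log2 levels of 6 core subunits are given as group means with their SD (n = 3), and levels are not compared between genes. *Ndufv1*, which binds the flavin that accepts electrons from NADH, stood at 15.86 ± 0.11 (C), 15.96 ± 0.18 (D), 15.73 ± 0.32 (C+P) and 15.86 ± 0.10 (D+P). *Ndufv2*, its partner with 1 iron-sulphur cluster, stood at 15.17 ± 0.03 (C), 15.34 ± 0.16 (D), 15.29 ± 0.12 (C+P) and 15.05 ± 0.04 (D+P). *Ndufs1*, with several clusters of the same arm, stood at 14.40 ± 0.00 (C), 14.47 ± 0.16 (D), 14.35 ± 0.16 (C+P) and 14.36 ± 0.13 (D+P). The groups of *Ndufs1* and *Ndufv1* overlapped in all 4 pairwise comparisons, while the *Ndufv2* hearts of D+P were all below those of the other groups. *Ndufs3*, of the part that binds ubiquinone, stood at 15.49 ± 0.26 (C), 15.17 ± 0.32 (D), 15.48 ± 0.22 (C+P) and 15.21 ± 0.25 (D+P). *Ndufs7*, with the last cluster before ubiquinone, stood at 15.53 ± 0.03 (C), 15.49 ± 0.02 (D), 15.60 ± 0.03 (C+P) and 15.47 ± 0.02 (D+P). For *Ndufs3* D replicate 1 was the lowest of the 12 arrays, and for *Ndufs7* the SDs were the smallest of the core subunits in C+P, D and D+P.

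The assembly factors had log2 levels of the same kind. *Ndufaf1*, a chaperone of the membrane arm, stood at 11.67 ± 0.06 (C), 11.33 ± 0.31 (D), 11.77 ± 0.29 (C+P) and 11.51 ± 0.24 (D+P). *Ndufaf3*, which acts with *Ndufaf4* on the ubiquinone-binding part, stood at 9.23 ± 0.30 (C), 9.22 ± 0.09 (D), 9.28 ± 0.27 (C+P) and 9.10 ± 0.15 (D+P). *Ndufaf5*, an enzyme that modifies *Ndufs7*, stood at 9.24 ± 0.02 (C), 9.34 ± 0.20 (D), 9.37 ± 0.36 (C+P) and 9.22 ± 0.21 (D+P). The highest *Ndufaf1* and *Ndufaf5* value lay on C+P replicate 1. *Ndufaf7*, a methyltransferase, stood at 10.39 ± 0.16 (C), 10.25 ± 0.31 (D), 10.42 ± 0.15 (C+P) and 10.33 ± 0.20 (D+P). The groups of *Ndufaf3*, *Ndufaf5* and *Ndufaf7* overlapped in both comparisons of diabetes. Those of *Ndufaf1* overlapped in D+P against C+P but not in D against C (10.98, 11.49 and 11.53 in D, 11.66, 11.73 and 11.61 in C). Of the genes with the prefix only, *Ndufa4* stood at 15.18 ± 0.66 (C), 15.54 ± 0.33 (D), 15.51 ± 0.19 (C+P) and 15.20 ± 0.29 (D+P), with 1 low C heart (14.41 on C replicate 1), and *Ndufa4l2* at 10.25 ± 0.18 (C), 10.09 ± 0.03 (D), 10.21 ± 0.01 (C+P) and 10.08 ± 0.36 (D+P).

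The first question was whether diabetes alone altered complex I transcripts. In D against C, 0 of 45 genes passed an adjusted p of 0.05 in limma, where 0.00648% of all tested probes did. At an unadjusted p under 0.05, 0 genes were higher and 0 lower, against 5.13% and 5.66% of all tested probes. Of all 64 tested Nduf probes 0 were higher and 2 lower, the other probes of *Ndufs1* and *Ndufv2* described with the probe pairs, while the methods' t-test gave 2 genes at that level, against 11.4% of all tested probes, and 0 after adjustment by Benjamini-Hochberg or Bonferroni. The median difference was -0.02 on the log2 scale, with 20 genes above 0 and 25 below, beside a median of -0.01 over all probes. For 42 of 45 genes (93.3%) the 95% interval lay within a 2-fold change in either direction, as it did for 89.5% of the genes of complexes III, IV and V, 84.9% of the bright probes and 58.6% of all tested probes. With each array scaled to its 75th percentile instead, the median was 0.15 and 11 genes lay below 0, so no direction is given for this comparison. Single arrays weighed on most values. Leaving out 1 array at a time moved 17 of the 19 differences of 0.15 or more by over 1.5 times and turned the sign of 4, and moved 24 of the 26 smaller ones and turned 17. In D+P against C+P it moved 17 of 22 and turned 1 of the larger differences, and moved 22 of 23 and turned 17 of the smaller ones. Differences under 0.15 are therefore given below as values without a direction.

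Among these core subunits *Ndufs3* read 15.79, 15.38 and 15.30 in C and 14.81, 15.39 and 15.32 in D. The groups overlapped, with D replicate 1 below and C replicate 1 above the other hearts. The difference was -0.31 ± 0.22 (SE, n = 3 per group, limma adjusted p = 0.606), -0.13 without D replicate 1 and -0.16 without C replicate 1. *Ndufv2* differed by 0.17 (0.08 without D replicate 1), *Ndufv1* by 0.09 (0.19 without D replicate 1), *Ndufs1* by 0.07 (-0.02 without D replicate 2), *Ndufs8* by -0.01 and *Ndufs7* by -0.04.

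*Ndufs4*, singled out after its values were seen, had the largest difference of all 45 genes in D against C. Its log2 levels were 14.20, 14.12 and 14.10 in C and 12.63, 14.08 and 13.998 in D. One heart, D replicate 1, was far below the others, and the rest differed little from C. The difference was -0.57 ± 0.34 (SE, n = 3 per group, limma adjusted p = 0.541) and -0.10 without D replicate 1. The largest positive difference among complex I subunits was that of *Ndufa11*, an accessory subunit of the membrane arm. Its log2 levels were 11.99, 12.47 and 12.29 in C and 12.53, 12.61 and 12.58 in D, which did not overlap. It differed by 0.33 ± 0.16 (SE, n = 3 per group, limma adjusted p = 0.475) and by 0.20 without C replicate 1. In all, 5 genes lay higher and 8 lower in D without overlap between the groups, which is 11.1% and 17.8% of them, beside 11.9% and 10.4% of all tested probes.

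The second question was whether diabetes altered them under pargyline. In D+P against C+P, 0 of 45 genes passed the adjusted threshold in limma (0.0454% of all tested probes), 0 were higher and 3 lower at an unadjusted p under 0.05 (3.67% and 3.79% of all tested probes), and the methods' t-test gave 4 at that level (6.55% of all tested probes) and 0 adjusted. The 3 lower genes were the core subunit *Ndufs8*, the accessory subunit *Ndufa12* and the assembly factor *Ndufaf6*, and none passed after adjustment. The count at an unadjusted p under 0.05 was 0 without C+P replicate 1, 0 without D+P replicate 3 and 0 when only the groups of the comparison were fitted. The median difference was -0.15 and 39 of 45 genes (86.7%) lay below 0, against 49% of all tested probes, with a median of 0.01. The median of the 737 tested probes with a mean log2 level of at least 14 was 0.00, and that of 38 genes of complexes III, IV and V was -0.02 with 20 below 0. The near-0 value of complexes III, IV and V depended on the scaling. At the 75th percentile the mean of the array medians went from 0.09 in C+P to -0.04 in D+P for those genes, and from 0.12 to -0.09 for the Nduf genes. Between 35 and 44 of the 45 genes lay below 0 under the alternatives tried. Groups did not overlap for 0 genes higher in D+P and 9 lower, 20% of the 45, where 7.32% and 6.57% of all tested probes did so.

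*Ndufs8*, a core subunit with 2 iron-sulphur clusters, had the smallest p of the 45 genes in this comparison. Its log2 levels were 15.13, 15.01 and 14.96 in C+P and 14.91, 14.47 and 14.45 in D+P. All D+P hearts lay below all C+P hearts, with 1 of them close to the C+P range. The difference was -0.42 ± 0.15 (SE, n = 3 per group, limma adjusted p = 0.595) and -0.26 with the normexp background. In C and D the gene stood at 14.74 ± 0.04 and 14.73 ± 0.06 (SD, n = 3), with a difference of -0.01 in D against C, and in C+P and D+P at 15.03 ± 0.08 and 14.61 ± 0.26. The C+P hearts were the highest of the 4 groups, and the other groups lay closer together.

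*Ndufa12*, an accessory subunit of the arm that reaches into the matrix, read 15.22, 15.29 and 15.23 in C+P and 14.96, 14.99 and 13.88 in D+P on the log2 scale. The groups did not overlap, and D+P replicate 3 lay more than 1 log2 unit below the other D+P hearts. The difference was -0.63 ± 0.26 (SE, n = 3 per group, limma adjusted p = 0.633) and -0.27 without that array. *Ndufaf6*, an assembly factor that acts early, read 10.06, 9.97 and 9.86 in C+P and 9.73, 9.70 and 8.73 in D+P. The same array was the lowest again, and the groups did not overlap. The difference was -0.58 ± 0.26 (SE, n = 3 per group, limma adjusted p = 0.664) and -0.25 without D+P replicate 3. A second *Ndufaf6* probe, well above background on 12 of 12 arrays, read 9.64, 8.91 and 8.84 in C+P and 8.99, 8.85 and 8.955 in D+P. Its groups overlapped, D+P replicate 3 did not stand apart on it, and its difference was -0.20, but 0.06 without C+P replicate 1.

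**Figure D2:**
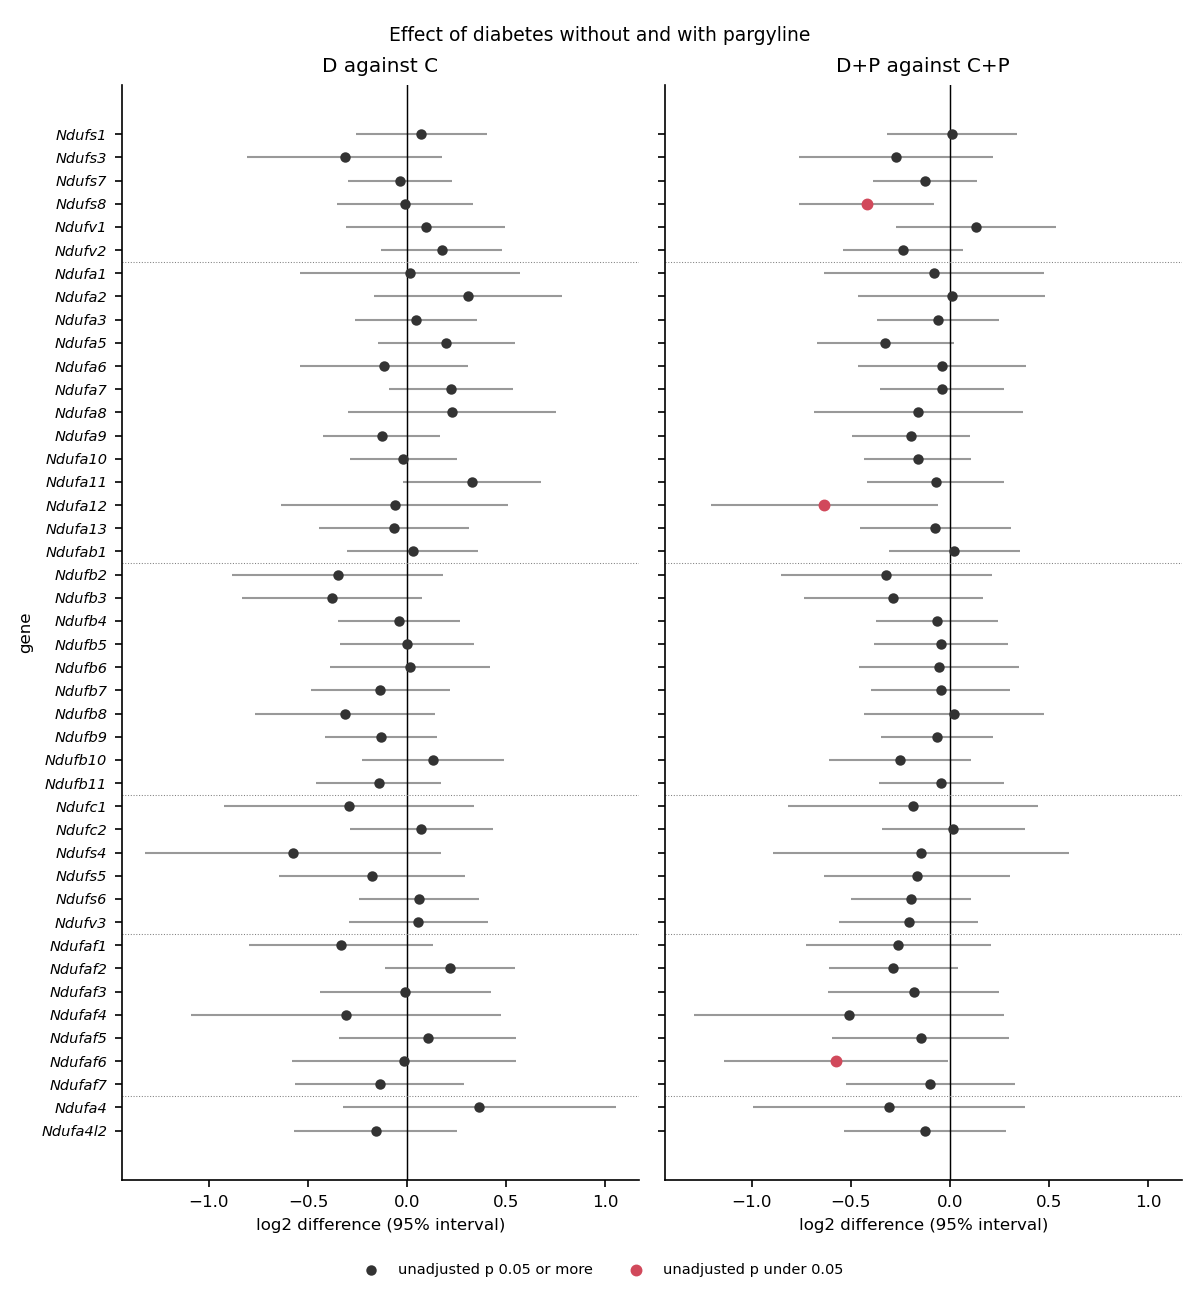
Log2 difference of 44 Nduf genes (points) with its 95% interval (lines) in D against C (left) and D+P against C+P (right), with genes in order of role and red points for an unadjusted p under 0.05. The 3 red points (*Ndufs8*, *Ndufa12*, *Ndufaf6*) are all in the right panel, where 38 of 44 points lie left of 0, while the left panel has 24.

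The 7 assembly factors all lay below 0 in D+P against C+P, with a median of -0.26, and under the alternatives 6 or 7 did so. The median was -0.09 without C+P replicate 1 and -0.13 without D+P replicate 2. Their range ran from -0.58 (*Ndufaf6*) to -0.10 (*Ndufaf7*). *Ndufaf4*, which works with *Ndufaf3* on the ubiquinone-binding part, read 10.44, 10.21 and 9.79 in C+P and 9.07, 9.76 and 10.08 in D+P. These groups overlapped, and the difference of -0.51 ± 0.35 (SE, n = 3 per group, limma adjusted p = 0.778) was -0.23 without D+P replicate 1. In D against C, 5 of the 7 lay below 0 (median -0.02), and 2 of 7 without D replicate 1 (median 0.03). Of 11 assembly factors without the prefix, 8 lay below 0 in D+P against C+P (median -0.14) and 6 in D against C (median -0.14). One of these, *Timmdc1*, was higher in D than in C by 0.49 and lower in D+P than in D by 0.54, each at an unadjusted p under 0.05 (5.13% and 6.43% of all tested probes in those directions), and passed in neither after adjustment. Both differences use the same D hearts, so D levels alone can move them in opposite directions, and the second also crosses slides. Neither was recomputed with arrays left out.

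The 10 accessory subunits of the B series, which sit in the membrane arm, had a median of -0.13 without pargyline and of -0.06 with it, with 7 and 9 below 0. The first was -0.04 with 6 below 0 without D replicate 1, the noisiest array, and the second -0.09 without C+P replicate 3 and -0.11 without D+P replicate 3. When the effect of diabetes was averaged over both pargyline states, all 10 lay below 0 (median -0.09, and -0.05 without D replicate 1), and 7 to 10 did so under the alternatives. Over all 45 genes this average had a median of -0.08 with 36 below 0 (80%, against 51.5% of all tested probes). In it 0 genes passed the adjusted threshold (0.107% of all tested probes), 0 were higher and 1 was lower at an unadjusted p under 0.05 (5.93% and 5.46% of all tested probes). The 95% interval lay within a 2-fold change for 45 of 45 genes, as it did for 81.1% of all tested probes.

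The other accessory subunits are given by their log2 differences. In the B series *Ndufb2* differed by -0.35 without pargyline (D against C) and by -0.32 with it (D+P against C+P), *Ndufb8* by -0.31 and 0.02, and *Ndufb10* by 0.13 and -0.25. Without D replicate 1 the first values were -0.04 for *Ndufb2*, -0.08 for *Ndufb8* and 0.05 for *Ndufb10*. The second values were -0.19 for *Ndufb2* without D+P replicate 1 and -0.11 for *Ndufb10* without C+P replicate 1. The remaining 6 genes of this series besides *Ndufb3* lay between -0.14 and 0.01 without pargyline and between -0.06 and -0.04 with it. Among the C, S and V series *Ndufc1*, in the membrane arm, differed by -0.30 and -0.19, and *Ndufs5*, on its intermembrane face, by -0.18 and -0.17. Those of *Ndufc1* became 0.06 without D replicate 1 and -0.03 without C+P replicate 1, and those of *Ndufs5* -0.05 without D replicate 1 and 0.01 without D+P replicate 1. *Ndufs6* and *Ndufv3*, both of the arm that holds the flavin, differed by 0.06 and 0.06 without pargyline and by -0.20 and -0.21 with it, where the values without pargyline were 0.0065 and -0.10 without D replicate 1. *Ndufc2* differed by 0.07 and 0.02 (-0.12 without D+P replicate 1). In the A series *Ndufa2* differed by 0.31 and 0.01, *Ndufa8* by 0.23 and -0.16, and *Ndufa7* by 0.22 and -0.04. The first values of *Ndufa2* and *Ndufa8* were 0.04 and -0.02 without C replicate 1, and the second value of *Ndufa8* was -0.06 without D+P replicate 2. *Ndufa9* differed by -0.13, without overlap between D and C, and by -0.20 (-0.13 without C+P replicate 1). *Ndufa6* differed by -0.12 and -0.04, *Ndufa10* by -0.02 and -0.16, *Ndufa13* by -0.07 and -0.07, *Ndufa1* by 0.01 and -0.08, *Ndufa3* by 0.05 and -0.06, and *Ndufab1*, the acyl carrier protein of the mitochondria, by 0.03 and 0.02. With single arrays left out the first values of these last 6 genes turned sign, for example to 0.07 for *Ndufa6* and 0.07 for *Ndufa13* without D replicate 1. None of these passed the unadjusted or the adjusted threshold in limma, and the C and C+P hearts are different animals in the 2 comparisons.

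The gene with the unadjusted p under 0.05 in this average was *Ndufb3*, a small subunit of the membrane arm. The count was 0 without any 1 of C replicates 1, 2 and 3, C+P replicates 2 and 3 and D replicate 1. It was also 0 at the 75th percentile and when the slide columns were blocked. Of all 64 tested Nduf probes 0 were higher and 2 lower at that level. The log2 levels of *Ndufb3* were 14.40, 14.27 and 14.23 in C, 13.99, 14.34 and 14.37 in C+P, 13.51, 14.07 and 14.19 in D and 13.73, 14.01 and 14.11 in D+P. D lay below C without overlap, and D+P overlapped C+P through C+P replicate 1. The averaged difference was -0.33 ± 0.14 (SE, n = 6 per arm, limma adjusted p = 0.421). *Ndufaf4* had the largest averaged difference of the 45, -0.41 ± 0.25 with an adjusted p of 0.567 in limma, but it was -0.21 without D replicate 1, where *Ndufa12* had a larger one of -0.31. The 13 subunits of the A series had the median closest to 0 among the roles, -0.03.

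**Figure D3:**
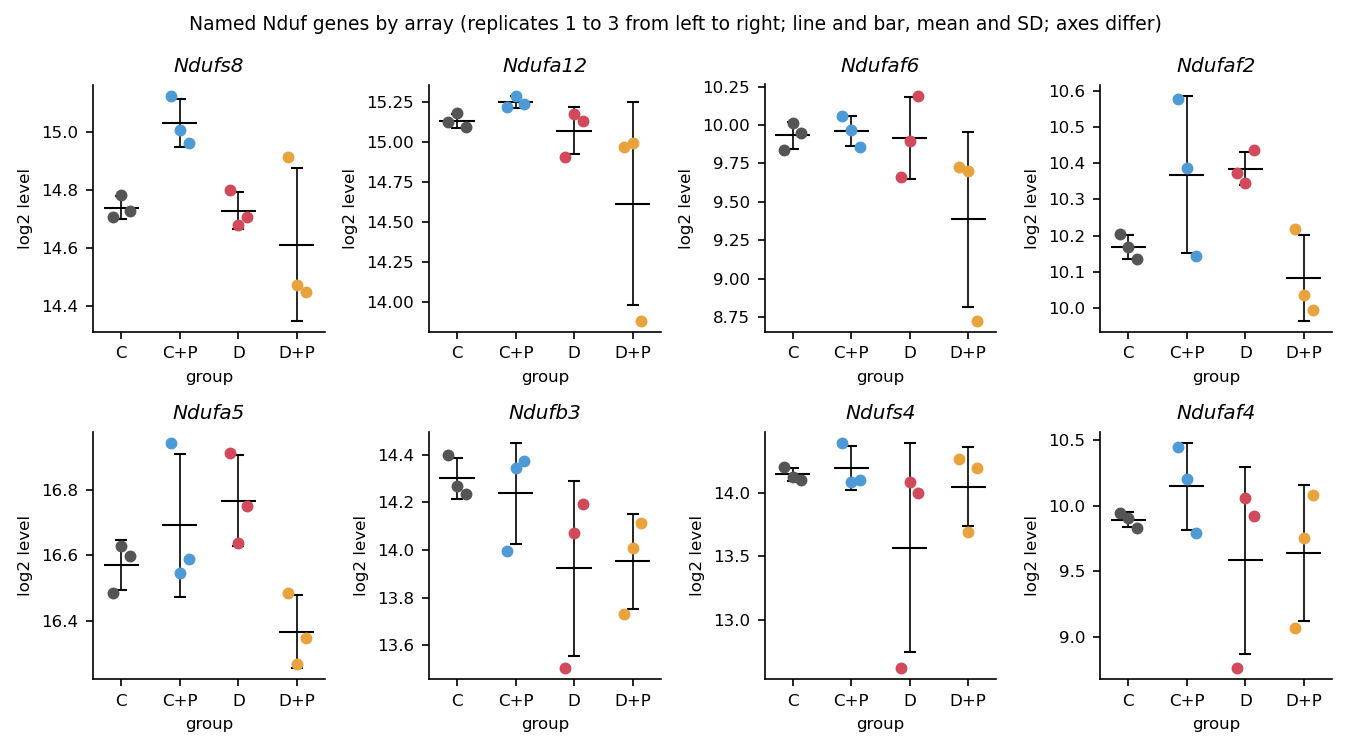
Log2 level of 8 Nduf genes in each heart (points, replicates from left to right) by group, with the group mean and SD (n = 3) and a separate vertical axis for each gene. *Ndufs8*, *Ndufa12* and *Ndufaf6* lie below C+P in every D+P heart, and the lowest points of *Ndufs4*, *Ndufb3* and *Ndufaf4* are all D replicate 1.

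The third question was what pargyline did to these genes in either state. These contrasts share the C+P, D+P, C and D hearts with those above, and their values are given for themselves. In C+P against C, 0 of 45 genes passed the adjusted threshold (0.0324% of all tested probes), and 0 were higher and 0 lower at an unadjusted p under 0.05 (1.95% and 2.48% of all tested probes), with 2 by the methods' t-test (7.69% of all tested probes) and 0 after adjustment. The median was 0.06, with 31 genes above 0 and 14 below, where 51% of all tested probes lay below. It was 0.17 with 4 below when scaled to the 75th percentile, 0.03 with 17 below under array weights, and 0.02 with 20 below without C+P replicate 1. The largest difference was that of *Ndufa8*, an accessory subunit of the membrane arm. It read 13.21, 13.81 and 14.06 in C, and 14.19, 14.21 and 14.07 in C+P. The groups did not overlap, though C replicate 3 almost reached them, and the difference was 0.46 ± 0.24 (SE, n = 3 per group, limma adjusted p = 1.0) and 0.22 without C replicate 1. Groups did not overlap for 7 genes higher (15.6%) and 1 lower (2.22%), beside 7.35% and 8.02% of all tested probes. All 7 assembly factors lay above 0 (median 0.10), but 2 of 7 did without C+P replicate 1.

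In D+P against D, 0 of 45 genes passed the adjusted threshold, as did 0 of all tested probes, that is 0%. At an unadjusted p under 0.05, 0 were higher and 1 lower (6.85% and 6.43% of all tested probes), and the methods' t-test gave 4 (8.34% of all tested probes), and 0 after adjustment. The median was -0.02 with 19 genes above 0 and 26 below, where 50.1% of all tested probes lay below. It was -0.19 with 38 below when scaled to the 75th percentile, -0.13 with 36 below under array weights, and -0.13 with 37 below without D replicate 1. The 1 gene was *Ndufa5*, an accessory subunit of the ubiquinone-binding part. It was not called without D+P replicate 3, nor when only the groups of the comparison were fitted. It read 16.91, 16.64 and 16.75 in D and 16.49, 16.27 and 16.35 in D+P. All D+P hearts lay below all D hearts, and the difference was -0.40 ± 0.16 (SE, n = 3 per group, limma adjusted p = 0.309). Its second probe, whose position overlaps that of the first, gave -0.29. Groups did not overlap for 0 genes higher and 5 lower (11.1%), beside 7.92% and 9.12% of all tested probes, and those 5 were *Ndufa5*, *Ndufa10*, *Ndufab1*, *Ndufaf2* and *Ndufv2*, chosen after their values were seen. Other probes gave 1.03 for *Ndufv2*, 0.66 and -0.15 for *Ndufa10* and -0.19 for *Ndufab1*. Of all 64 tested Nduf probes 1 was higher and 1 lower at an unadjusted p under 0.05.

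The interaction asks whether the effect of diabetes differed with pargyline. In limma 0 of 45 genes passed the adjusted threshold (0.00648% of all tested probes), and 0 were higher and 2 lower at an unadjusted p under 0.05 (4.12% and 2.91% of all tested probes). The 2 genes were *Ndufa5* and *Ndufaf2*, a chaperone related in sequence to *Ndufa12*. The count was 0 without any 1 of C replicates 1, 2 and 3, C+P replicate 1 and D+P replicates 2 and 3, and 0 when the slide columns were blocked. Of all 64 tested Nduf probes 1 was higher and 3 lower at an unadjusted p under 0.05. The effect of diabetes on *Ndufa5* was 0.20 without pargyline (0.12 without D replicate 1) and -0.33 with it (-0.20 without C+P replicate 1), and the interaction was -0.52 ± 0.22 (SE, n = 3 per group, limma adjusted p = 0.703) and -0.34 under array weights. *Ndufaf2* read 10.20, 10.17 and 10.14 in C, 10.58, 10.39 and 10.14 in C+P, 10.37, 10.35 and 10.44 in D and 10.22, 10.04 and 9.995 in D+P. Its D hearts lay above C without overlap and above D+P without overlap. Its interaction was -0.50 ± 0.21 (SE, n = 3 per group, limma adjusted p = 0.703). Over the 45 genes the interaction had a median of -0.07 with 29 below 0, where 50.4% of all tested probes lay below. It was -0.32 with 43 below when scaled to the 75th percentile, -0.15 with 38 below under array weights and -0.14 with 40 below without D replicate 1, but 0.006 with 22 below without D replicate 2, so no direction is given. Of the A series 12 of the 13 genes lay below 0, and 9 to 13 did so under the alternatives.

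Complex I subunits were also set against other genes of the respiratory chain, as the median centred level of the 36 subunits minus that of 38 genes of complexes III, IV and V on the same array. This difference ran from -0.04 to 0.04 in C and from 0.04 to 0.09 in C+P. It ran from -0.07 to -0.01 in D and from -0.05 to 0.01 in D+P. The C+P hearts lay above all others, though the lowest of them was nearly level with the highest C heart. Scaled to the 75th percentile, C+P ran from 0.01 to 0.06, C from -0.01 to 0.05 and D from -0.05 to 0.05, which overlapped, and D+P from -0.05 to -0.04, below all C and C+P hearts. The 7 subunits encoded by mitochondrial DNA had medians of 0.15 in D against C (6 above 0) and -0.02 in D+P against C+P (3 above 0). Of all tested probes 51.1% and 49% lay below 0 in those contrasts. The array medians of these 7 ran from -0.09 to 0.22 in D and from -0.07 to -0.02 in C. Those ranges overlapped, so no direction is given. In limma 0 of these 7 passed the adjusted or the unadjusted threshold in any contrast.

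**Figure D4:**
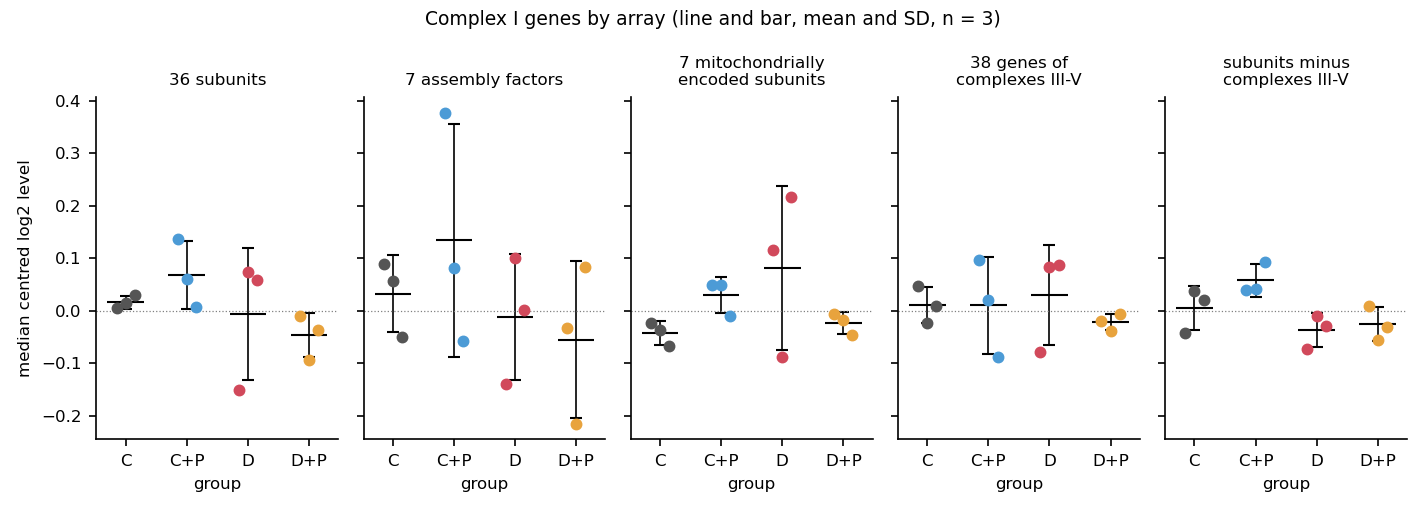
Median centred log2 level (each gene minus its mean over 12 arrays) per array for 36 complex I subunits, 7 assembly factors, 7 mitochondrially encoded subunits, 38 genes of complexes III to V, and the subunits minus those of complexes III to V. Points are hearts and lines and bars the mean and SD (n = 3), and the assembly factors span the widest range of the 5 panels, from -0.21 on D+P replicate 2 to 0.38 on C+P replicate 1.

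Of 8 complex II genes, 8 lay below 0 in D+P against D (median -0.21), where 50.1% of all tested probes did, and 8 also did in C+P against C (median -0.13). Their array medians ran from 0.09 to 0.26 in D and from -0.37 to 0.03 in D+P, without overlap. They ran from -0.02 to 0.15 in C and from -0.29 to 0.05 in C+P, which overlapped. In D+P against D 3 of the 8 genes, *Sdhaf3*, *Sdhd* and *Sdhaf1*, reached an unadjusted p under 0.05 (6.43% of all tested probes were lower at that level) without passing after adjustment. Of 10 regulators of mitochondrial biogenesis 0 passed in any contrast. At an unadjusted p under 0.05, 3 contrasts held calls. In D+P against D 1 regulator was higher and 2 lower, beside 6.85% and 6.43% of all tested probes. These were *Gabpb1*, part of a factor that binds promoters of respiratory chain genes, with 0.55 ± 0.19 (SE, limma adjusted p = 0.273), *Nrf1* with -0.39 ± 0.13 (limma adjusted p = 0.269) and *Tfb2m*, a factor of mitochondrial transcription, with -0.41 ± 0.13 (limma adjusted p = 0.253). In D against C 1 was higher, *Tfb2m* (0.32, limma adjusted p = 0.437), and 1 lower, *Gabpb1* (-0.42, limma adjusted p = 0.462), beside 5.13% and 5.66%. This contrast and D+P against D use the same D hearts, so their opposite signs for *Tfb2m* and *Gabpb1* are not separate findings. For diabetes averaged over pargyline 0 were higher and 1 lower, beside 5.93% and 5.46%, and this was *Esrra*, a nuclear receptor that acts on respiratory chain genes, with -0.37 ± 0.15 (limma adjusted p = 0.404). The complex IV gene *Cox6b2* was the only gene of the complex III to V lists that passed, with a difference of 1.00 ± 0.15 for diabetes averaged over pargyline (limma adjusted p = 0.0423). In that contrast 0.107% of all tested probes passed. The value lies close to the threshold of 0.05, and this gene was not recomputed under the alternatives.

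For 18 genes more than 1 probe was tested, which gave 19 further probes. Those whose accession is not one of RefSeq and those of RefSeq differed in how far they lay from the representative in some contrasts but not in all. In D against C, 3 of 8 such probes had the sign of the representative and their median gap from it was 0.49, while 6 of 11 RefSeq probes had the sign and their median gap was 0.12. In C+P against C 7 of 8 and 8 of 11 had the sign, and the largest gaps were 0.54 and 0.55. In the interaction the median gaps were 0.22 and 0.22. Of the 8, 6 were not well above background on all 12 arrays, as was 1 of the 11. The largest gaps in D against C were those of *Ndufs1*, a core subunit with several iron-sulphur clusters, of *Ndufv2*, a core subunit with 1 cluster, and of *Ndufa10*, an accessory subunit of the membrane arm. The first 30 of the 60 bases of each probe are shown 5′ to 3′ as the files give them, to let the sites be told apart, and no letters are in capitals because no part is singled out.
Ndufs1 representative: ccgtccatatgctgagacatctaacaggga
Ndufs1 other probe: ctcaaaaagaaaaagagagacactctgcta
Ndufv2 representative: gtgtgcaagcaggcctttaacttgtattca
Ndufv2 other probe: gtggttcacagaattaagaaatggtaggat
Ndufa10 representative: ttcaggataagacagaagtgctgaattaca
Ndufa10 other probe: tgcacaatgagcaatattatattttggact
In mm9, on the minus strand, the *Ndufs1* probes lie at chr1:63190360-63190419 and chr1:63196822-63196881, the *Ndufv2* probes at chr17:66428794-66428853 and chr17:66442062-66442121, and the *Ndufa10* probes at chr1:94348635-94348694 and chr1:94369356-94369415. The files do not say whether a probe lies in an exon, an intron or a UTR.

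The other *Ndufs1* probe read 6.59, 7.02 and 6.92 in C and 7.00, 5.41 and 5.02 in D. D replicates 2 and 3 lay far below C, while D replicate 1 did not. The difference was -1.03 ± 0.40 (SE, n = 3 per group, limma adjusted p = 0.420), -0.64 without D replicate 3 and -1.63 without D replicate 1, whereas the representative differed by 0.07. The other *Ndufv2* probe read 5.51, 5.55 and 6.00 in C and 4.37, 5.44 and 3.94 in D. Both probes reached an unadjusted p under 0.05. The *Ndufv2* groups did not overlap and the difference was -1.10 ± 0.38 (SE, n = 3 per group, limma adjusted p = 0.371), whereas the representative differed by 0.17 and the probe exceeded background on 8 of 12 arrays. The dim *Ndufa10* probe differed by -0.82 in D against C (-0.38 without D replicate 3) and the representative by -0.02.

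**Figure D5:**
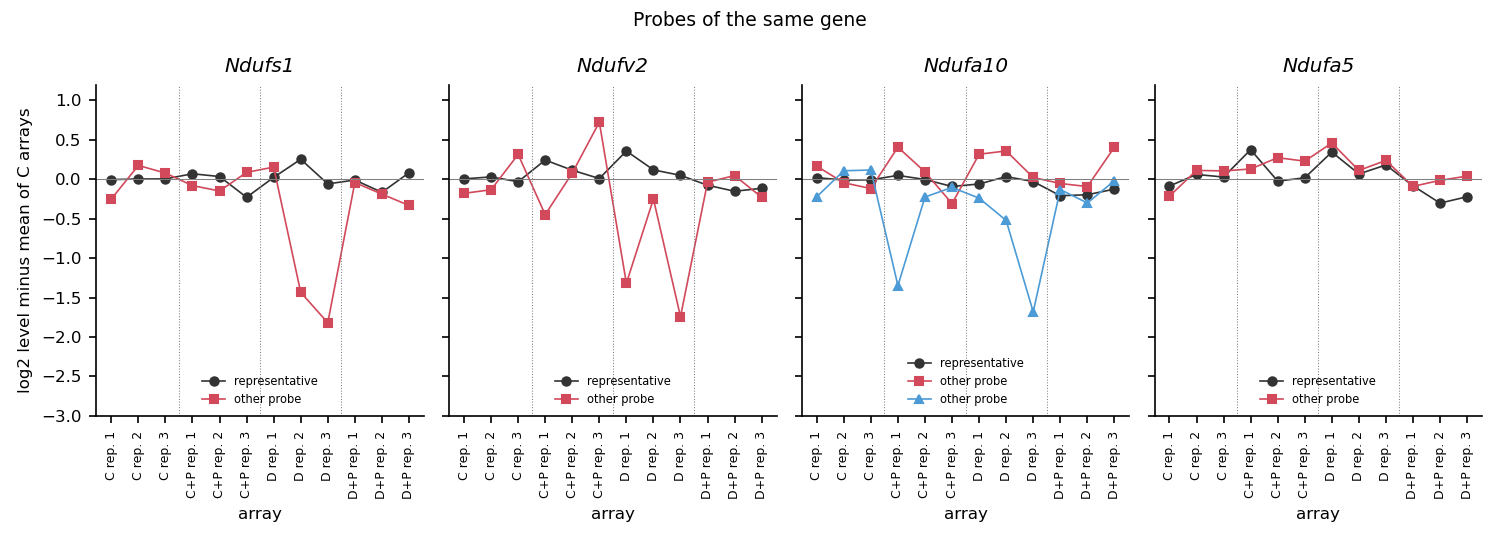
Log2 level of each tested probe of *Ndufs1*, *Ndufv2*, *Ndufa10* and *Ndufa5* on the 12 arrays, minus the mean of that probe over the C arrays, with the representative in black. The other probes of *Ndufs1* and *Ndufv2* and the dim probe of *Ndufa10* drop by over 1 log2 unit on some arrays where the representative does not. Neither *Ndufa5* probe drops that far.

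The promoters of the members were searched for motifs of factors known to act on respiratory chain genes, on both strands, from 250 bases before to 50 after the gene start (RefSeq, GRCm38.p6, matched for 39 of 45 genes). The YY1 motif AAGATGGC was in 17.9% of the member promoters and in 3.19% of those of all 27025 genes. The NRF-1 motif GCGCATGC was in 12.8% against 3.05%, the GABPA motif CCGGAAG in 12.8% against 9.93% and the ERR motif AAGGTCA in 7.69% against 5.38%. The reverse of the NRF-1 motif overlaps its forward form, so that 1 stretch can match both. A match describes letters and not a bound site. Windows of 30 bases are shown for genes whose values are given above, with the motif (or its reverse complement) in capitals, to let its place be seen.
Ndufs4 with YY1: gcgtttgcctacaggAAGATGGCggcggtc
Ndufs7 with YY1: aggccgaggccAAGATGGCggcgctggcgg
Ndufaf4 with NRF-1: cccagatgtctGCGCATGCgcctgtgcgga
Ndufs8 with GABPA: ttaggctccgcCTTCCGGttgaaccgcatc
These windows lie at chr13:114388045-114388074 (minus strand), chr10:80249462-80249491 (plus strand), chr4:24897959-24897988 (plus strand) and chr19:3912741-3912770 (minus strand). All 7 YY1 matches began 22 to 38 bases after the gene start on the gene's strand, and 0 lay before it.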

How the data were processed

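Total heart RNA (200 ng, RNA integrity number above 7) was labelled with Cy3 by the authors, hybridised to single-colour Agilent SurePrint arrays and quantified per spot by Feature Extraction. The deposited scanner files hold linear intensity after background subtraction and spatial detrending, with 0 or 1 flags per spot. The deposited series table holds intensity that the authors quantile normalised. Samples were grouped by their labels, and replicates are separate mice.

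Here, scanner intensity was log2 transformed, outlier spots were set to missing, arrays were quantile normalised and repeated spots averaged. The test took the probes with a positive and significant flag in 50% or more of each group's arrays (30859 of 56605). limma 3.58.1 in R 4.3.3 fitted 1 mean per group over 12 arrays with 8 residual degrees of freedom. P-values are two-sided, Benjamini-Hochberg adjusted over all tested probes, with a threshold of 0.05. The precision is limited by 3 arrays per group, with a median 95% half-width of 0.40 for a Nduf gene in a pairwise contrast. The fit was tested on simulated data. Figures were made in matplotlib 3.10.9 under Python 3.11.15.

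Genes named with values in every array were those past the adjusted threshold in any contrast, and, per contrast, up to 3 rises and 3 falls at an unadjusted p under 0.05 whose groups did not overlap. The core subunits, except 1 that is not reported here by name, the assembly factors and the genes with the prefix only were named with group means. Other genes in the text were chosen after their values were seen. The members, lists and motifs were chosen with earlier results of these data known. RefSeq named 53 of the 70 Nduf probes, with 0 differing from the file. One gene (*Ndufaf8*) has the prefix only in RefSeq and is not included. Same-number arrays correlated at -0.20 to 0.20 in their deviations, so numbers do not pair samples. Alternatives were other scaling, background, filters, weights, blocks, probe rules and tests, and each array left out.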

Additional observations from a re-analysis of the deposited data

How the results depend on the processing

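The count of Nduf genes past the adjusted threshold was 0 in all 6 contrasts under each alternative tried, and at an unadjusted p under 0.05 the counts ran from 0 in each contrast up to 2 for D against C (11.6% of all probes at that setting), 4 for D+P against C+P (10.3%) and 3 for averaged diabetes (12.6%), and for pargyline up to 4 without diabetes (3.76%), 6 with diabetes (11.3%, without D+P replicate 1) and 5 in the interaction (7.55%). The 7 results for single genes named by rule kept their sign in all 167 recomputations and passed in 0. Scaling to the 75th percentile moved the median by more than the spread between arrays (SD 0.07) to 0.15 in D against C, to 0.17 in C+P against C, to -0.32 in the interaction and to -0.19 for D+P against D. Array weights gave -0.15 in the interaction and -0.13 for D+P against D. The cause was not tested. Leaving out each array in turn, the median ran from -0.06 to 0.03 in D against C, from -0.20 to -0.11 in D+P against C+P, from -0.09 to -0.06 for averaged diabetes, from 0.02 to 0.10 in C+P against C, from -0.14 to 0.006 in the interaction and from -0.13 to -0.014 for D+P against D. The sign of the median in D against C turned without D replicate 1 (0.03) and that of the interaction without D replicate 2 (0.006). With the replicate number as a block (replicate block) 0 genes passed the adjusted threshold in any contrast and the medians were those without it, for example -0.15 in D+P against C+P. At an unadjusted p under 0.05 this block gave 2 genes instead of 3 in D+P against C+P (7.16% of all tested probes). It gave 3 instead of 2 in the interaction (6.85%), and the other contrasts kept their counts. The 3 arrays per group limit the precision, and the median half-width of 0.40 means that smaller pairwise differences of a typical Nduf gene cannot be told from 0.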
